A study of Homo sapiens with 16 samples.

Results

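A pair of short hairpin RNAs against the same gene, AHCY, were compared in human fibroblasts with an active RAS oncogene, to show where the transcriptome depended on which hairpin was used. The comparison used 8 of the 16 libraries of the series, 4 with the hairpin named shAHCY_2 and 4 with the hairpin named shAHCY_4, and all genes of the deposited count table, of which 13526 of 62069 were abundant enough to be tested. IMR90 ER:RAS cells are lung fibroblasts that carry a RAS oncoprotein fused to the oestrogen receptor, which 4-hydroxytamoxifen (4OHT) activates. Cells of both hairpin groups received 100 nM 4OHT, as did the vector cells labelled EV_4OHT, whereas the vector cells labelled EV are described as non-senescent. The other 8 libraries, 4 of EV and 4 of EV_4OHT, entered the fit and are given as levels. All 16 libraries were labelled day 6 and passage 15. The labels name no hairpin against another target, no hairpin library without 4OHT, and do not say if libraries of the same group were grown separately. The p-values therefore measure only how far these libraries scatter, part of which may be technical.

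AHCY, adenosylhomocysteinase, splits S-adenosylhomocysteine, the by-product of every methylation that uses S-adenosylmethionine, into adenosine and homocysteine. When the enzyme is short, S-adenosylhomocysteine builds up and can inhibit methyltransferases. A hairpin RNA is cut by DICER1 into a guide that AGO proteins hold against matching transcripts. The guide's seed, near its 5′ end, can also pair with other transcripts, so hairpins of different sequence share their target but not the rest of what they bind. In fibroblasts with active RAS, such hairpins act on a background of oncogene-induced senescence, a lasting growth arrest in which cells also release inflammatory and matrix-degrading proteins, known as the senescence-associated secretory phenotype (SASP).

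The microRNA gene MIR30A had counts in every hairpin library and next to none in the vector libraries, and its precursor and arms are shown because their counts also differed between the hairpins. The precursor lies on the minus strand at chr6:71403551-71403621 of GRCh38.p14, and its sequence and those of its arms are from RefSeq. In the precursor the capitals mark the mature arms, and in each arm they mark the seed, bases 2 to 8.
MIR30A precursor: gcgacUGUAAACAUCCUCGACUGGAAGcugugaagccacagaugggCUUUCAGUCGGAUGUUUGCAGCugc
hsa-miR-30a-5p: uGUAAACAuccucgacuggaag
hsa-miR-30a-3p: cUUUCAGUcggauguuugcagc

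MIR30A (ENSG00000207827) received 507, 706, 402 and 562 counts in the shAHCY_2 libraries and 234, 315, 328 and 346 in the shAHCY_4 libraries. It had 1 count over the 4 EV libraries and 0 over the 4 EV_4OHT libraries. Scaled for depth, the level was 44.3 ± 5.37 CPM (counts scaled to a common library size; mean ± SD, n = 4) with shAHCY_2 and 25.1 ± 2.48 with shAHCY_4, and the ranges did not overlap. That was at least 784-fold and at least 444-fold higher than the floor of 3 counts over the EV_4OHT group. Between the hairpins the level was 1.77-fold higher with shAHCY_2 (log2 difference of shAHCY_4 from shAHCY_2 -0.83 ± 0.12, SE, adjusted p = 0.00123, edgeR's quasi-likelihood test). Of all genes in the table, MIR30A and TLR4 were the only ones with over 40 counts in the hairpin libraries and hardly any (at most 4) in the vector libraries, and TLR4, a receptor of the innate immune system, had 12 and 42 counts with shAHCY_2 and shAHCY_4. Both genes were singled out after their values were seen. MIR30C2 and the other 4 genes of the miR-30 family (MIR30B, MIR30C1, MIR30D and MIR30E) had 0 counts in all 16 libraries. LINC00472, a long noncoding RNA gene near MIR30A, had 270 and 286 counts over the hairpin groups and 351 and 369 over EV and EV_4OHT. Many hairpin vectors place the hairpin in the frame of the miR-30a precursor. The labels name no vector, the hairpins' own sequences were not used here, and whether these counts come from the construct was not tested.

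AHCY itself was low with both hairpins. The libraries had 20, 19.0, 12.1 and 22.8 CPM with shAHCY_2 (18.5 ± 4.53) and 13.4, 14, 18 and 13.4 CPM with shAHCY_4 (14.7 ± 2.19), against 164 ± 8.07 in EV_4OHT and 114 ± 11.3 in EV. The mean level left was 11.3% of that in EV_4OHT for shAHCY_2 and 8.95% for shAHCY_4. The hairpin groups overlapped, because the lowest shAHCY_2 library, replicate 59, lay under all shAHCY_4 libraries and the highest shAHCY_4 library, replicate 63, lay inside the range of shAHCY_2. The log2 difference was -0.34 ± 0.14 with a 95% interval from -0.63 to -0.04 and did not pass the threshold (adjusted p = 0.216). It passed without shAHCY_2 replicate 59 (-0.49, adjusted p = 0.0337) and after a GC trend was removed from each library (-0.38, adjusted p = 0.0425), and with both changes together (-0.48, adjusted p = 0.00485).

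**Figure D1:**
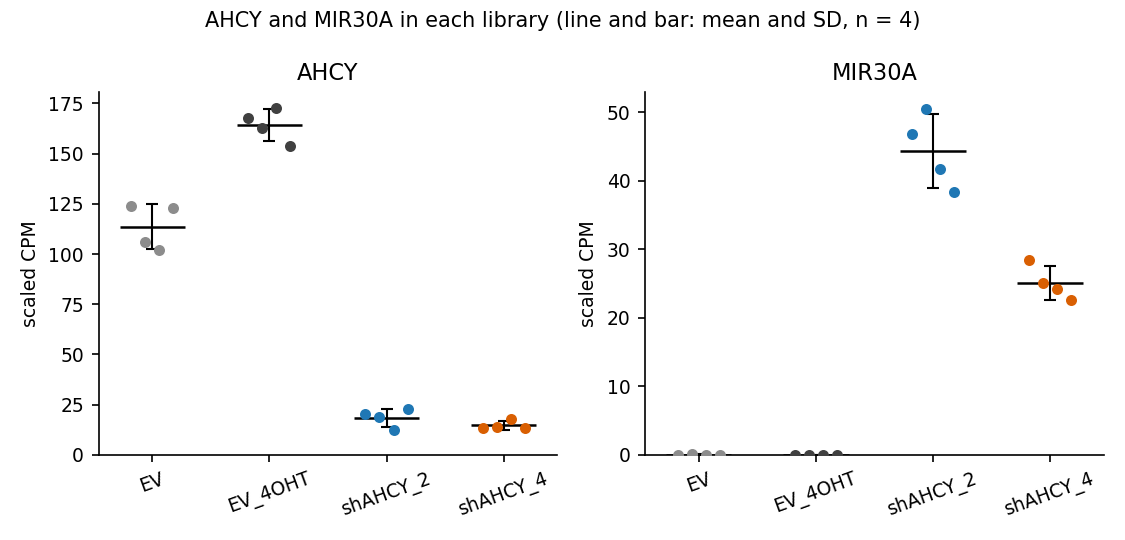
Level of AHCY (left) and MIR30A (right) in scaled CPM on the vertical axes for each of the 16 libraries, by group; lines and bars are the mean and SD of 4 libraries. AHCY lies at 18.5 and 14.7 CPM with the hairpins and overlaps between them, whereas MIR30A is near 0 in the vector groups and does not overlap between the hairpins.

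Depth in the hairpin libraries ran from 8236199 to 15144530 counts, with 11903 to 12998 genes at 10 counts or more. The markers of the labelled cell type were present: the 16 fibroblast markers summed to 5161 to 5662 CPM over the shAHCY_2 libraries and 5047 to 5702 over the shAHCY_4 libraries. Among markers of other cell types, KRT5, KRT14, SFTPC and SCGB1A1 (epithelial), PECAM1 and CDH5 (endothelial) and CD3E, MS4A1, ITGAM and TYROBP (leukocyte) had 0 counts in the 8 hairpin libraries. Of the 12 epithelial, 10 endothelial and 12 leukocyte markers listed, 5, 5 and 3 were abundant enough to be tested. The epithelial markers summed to 48.09 to 63.02 CPM over the shAHCY_2 libraries and 49.01 to 62.72 over the shAHCY_4 libraries. The endothelial sums were 19.4 to 22.2 and 23.1 to 28.7 CPM, and the leukocyte sums 3.32 to 7.16 and 3.85 to 5.59 CPM. These are bulk samples, in which fewer cells expressing a gene and less RNA per cell cannot be told apart. Library distances, as the root mean square log2 difference over genes, had a median of 0.46 over the 16 pairs between the hairpins, beside 0.48 over the 6 pairs within shAHCY_2 and 0.44 over the 6 within shAHCY_4. One library stood apart, shAHCY_2 replicate 59. Without it the median distance was 0.46 over the 12 pairs between the hairpins and 0.42 over the 3 pairs within shAHCY_2. Relative to the mean of all 16 libraries, shAHCY_2 replicate 59 was lower at GC-rich genes (Spearman's rho of the deviation with GC content -0.54). The rho values were 0.01 to 0.15 in the other 3 shAHCY_2 libraries and -0.12 to 0.28 in the shAHCY_4 libraries. Across genes, the log2 difference between the hairpins had a rho of 0.31 with GC content, 0.06 without that library. Genes are not independent replicates, so these are descriptions. Without this library 14 called genes named by the rule lost their call: ACTG2, AREG, ATP5MC3, CCL2, CTH, EHMT2, HSPA5, MT-RNR2, PC, RBL2, SOX11, SSH3, TMEM119 and VIM.

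The hairpins differed at few genes and mostly by less than 2-fold. Of 13526 genes tested, 168 passed an adjusted p of 0.05, 1.24% of all. Of these, 73 were higher with shAHCY_4 (0.54%) and 95 were lower (0.702%). Only 7 were higher and 10 lower by 2-fold or more, and the median absolute log2 difference was 0.55 over the called genes (0.21 to 1.6) and 0.16 over all genes. Among the called genes, 165 had hairpin ranges that did not overlap, beside 1474 of all genes tested (10.9%). For 11310 genes (83.6%) the 95% interval of the difference lay within 1 log2 unit of 0. At an unadjusted p under 0.05 there were 2423 of the 13526 genes, in either direction. Counts of list members at that limit are to be read beside this share. In the same fit, 944 genes differed between shAHCY_2 and EV_4OHT (6.98%) and 1953 between shAHCY_4 and EV_4OHT (14.4%), and these counts share the EV_4OHT libraries.

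The number of called genes depended on single libraries. It was 155, 88 and 110 without shAHCY_2 replicates 57, 58 and 60. Without shAHCY_4 replicates 61, 62, 63 and 64 it was 135, 75, 89 and 75. Without shAHCY_2 replicate 59, the library that stood apart, it was 115, of which 95 were among the 168. Removing each library's GC trend gave 623 genes, 382 of them higher (61.3%, beside 43.5% of the 168). The 168 genes, called without that step, had a median GC content of 51.2% where higher and 43.1% where lower. It was 47.5% for all genes tested. Library totals in place of scaling factors gave 171 genes, 49.7% of them higher. A core of 50 genes, 18 higher and 32 lower, was called under each alternative of the processing other than the fold threshold and the one added after seeing the data. It held ASPH, LCOR, ID1, ID2, MIR30A and IGFBP5 among the lower genes and G0S2, SRGN, CTSK and EPAS1 among the higher genes.

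**Figure D2:**
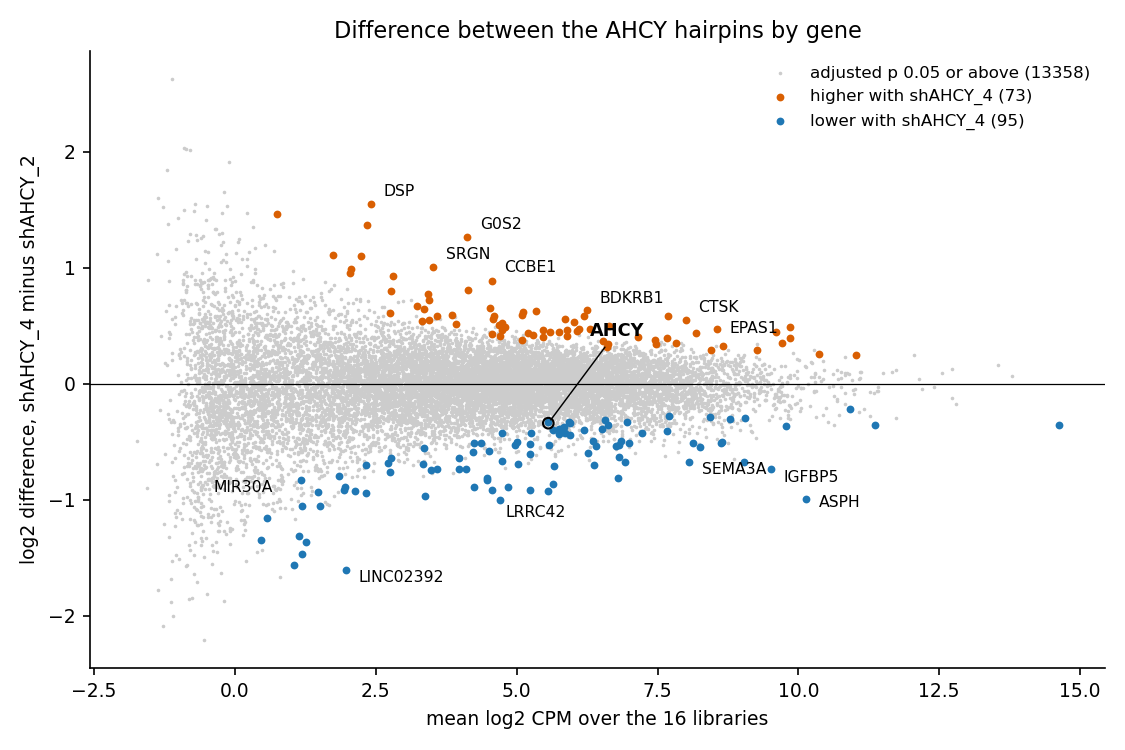
Log2 difference of shAHCY_4 from shAHCY_2 (vertical axis) against mean log2 CPM (horizontal axis), 1 point for each of the 13526 genes; coloured points passed an adjusted p of 0.05. The 73 higher and 95 lower genes are spread over the range of levels, and most lie within 1 log2 unit of 0.

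The genes that were lowest with shAHCY_4 relative to shAHCY_2 had unlike roles. Genes were named by size or p only where the hairpin ranges did not overlap. For these genes the lack of overlap is therefore part of the choice and no separate result. ASPH, which hydroxylates aspartate and asparagine residues of proteins in the endoplasmic reticulum, had the smallest p of all genes. It had 1249, 1293, 1477 and 1212 CPM with shAHCY_2 and 709, 629, 641 and 651 CPM with shAHCY_4. The groups were far apart, with a log2 difference of -0.99 ± 0.07 (adjusted p = 5.11e-08). LRRC42, a leucine-rich repeat protein, had 42.6, 36.1, 42 and 41.7 CPM against 21.5, 20.7, 21.8 and 22.2 CPM, and every shAHCY_4 library lay below every shAHCY_2 library (-0.91 ± 0.09, adjusted p = 3.01e-06). TAGLN3, a transgelin best known from neurons, was at 64.6, 63.9, 55 and 67.7 CPM against 35, 36.9, 39.0 and 30.9 CPM (-0.83 ± 0.09, adjusted p = 3.63e-05), again without overlap.

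LCOR, a corepressor of nuclear receptors, showed the largest drop of all genes under the naming rule (-1.0 ± 0.18, adjusted p = 0.00497). Its shAHCY_2 libraries were uneven at 25.1, 32.6, 50.8 and 33.1 CPM, with replicate 59 the highest, while the shAHCY_4 libraries lay at 17.5, 17.0, 17.3 and 18.5 CPM. Without that library the difference was -0.79 and still passed (adjusted p = 0.00735). GPAT3, an acyltransferase of triglyceride synthesis, fell by 0.89 on the log2 scale (47.5 ± 1.84 against 25.8 ± 5.37 CPM). DPY19L3, which attaches mannose to tryptophan residues, also fell by 0.89 (19.6 ± 1.91 against 10.7 ± 2.05 CPM). RAB27A, a GTPase of vesicle secretion, was at 31.6 ± 5.71 and 17.9 ± 1.73 CPM, and PTPRN, a membrane protein of secretory granules, at 22.5 ± 2.83 and 11.9 ± 1.03 CPM. LCE2A, a late cornified envelope gene, was at 30.2 ± 2.39 and 15.5 ± 2.44 CPM. For these 5 genes no shAHCY_4 library reached the lowest shAHCY_2 library, and the calls were kept without each of the 8 libraries. SOX11, a transcription factor of development, was at 122, 136, 214 and 114 CPM against 83.8, 73.9, 90.3 and 86.2 CPM (-0.81 ± 0.19, adjusted p = 0.0411). Its call was lost without any of 6 of the 8 libraries, replicate 59 among them (-0.57, adjusted p = 0.0968).

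SEMA3A, a secreted semaphorin, was higher with shAHCY_2 than in any other group. It had 361, 363, 435 and 337 CPM with shAHCY_2 and 228, 235, 242 and 235 CPM with shAHCY_4 (-0.67 ± 0.08, adjusted p = 0.000121), beside 278 ± 14.2 CPM in EV_4OHT. IGFBP5, which binds insulin-like growth factors, had 792, 839, 1209 and 727 CPM against 513, 495, 560 and 571 CPM. The shAHCY_4 libraries were all lower (-0.74 ± 0.12, adjusted p = 0.00168).

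ID1 and ID2 code for helix-loop-helix proteins without a DNA-binding part that hold other transcription factors inactive, and both are induced by bone morphogenetic proteins. ID1 had 47.6, 48.9, 42.2 and 54.9 CPM with shAHCY_2 and 25.9, 28.8, 23.1 and 24.4 CPM with shAHCY_4 (-0.93 ± 0.13, adjusted p = 0.000502). ID2 had 35.9, 38.9, 42.8 and 41.9 CPM against 29.3, 21.8, 18 and 19.5 CPM (-0.86 ± 0.12, adjusted p = 0.000437). Neither gene's hairpin groups overlapped. They were the only called members of a list of 15 tested TGF-beta and BMP targets (median log2 difference -0.16, beside -0.01 over all genes). ID3, the closest relative on the list, was at 24.8 and 18.6 CPM in its group means and did not pass (-0.43 ± 0.13, adjusted p = 0.107). CCN1 and CCN2, targets of TGF-beta, had differences of 0.18 and 0.08. TGFBI, on the same list, was at -0.27 (adjusted p = 0.0524 with edgeR's quasi-likelihood test and 0.0151 with DESeq2). Over the list, 10 differences were negative and 5 positive, and 6 were lower and 1 higher at an unadjusted p under 0.05. DESeq2 called 3 members lower and limma-voom 2.

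Among genes with a mean log2 CPM of at least 3, the largest rise with shAHCY_4 was at G0S2, an inhibitor of the triglyceride lipase ATGL. Its level was 20, 19.2, 16.0 and 27.2 CPM with shAHCY_2 and 51.8, 55.5, 48.1 and 44.5 CPM with shAHCY_4 (log2 difference 1.27 ± 0.14, adjusted p = 2.83e-05). SRGN, the core protein of the granule proteoglycan serglycin, had 7.94, 8.14, 13.2 and 10.2 CPM against 22.1, 19.8, 17.1 and 20.2 CPM (1.01 ± 0.17, adjusted p = 0.00232). CCBE1, a secreted protein that promotes processing of the lymphatic growth factor VEGFC, had 11.6, 10.8, 14 and 12.3 CPM against 24.0, 24.4, 21.8 and 20.2 CPM (0.89 ± 0.11, adjusted p = 0.000122). For all 3 genes every shAHCY_4 library lay above every shAHCY_2 library, as the naming rule required. Their calls were kept without each of the 8 libraries.

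The other rises with the smallest p or the largest size included a protease, a matrix protein, a transcription factor and membrane receptors. CTSK, a protease that cuts collagen, had 265, 261, 260 and 275 CPM against 384, 409, 388 and 373 CPM (0.55 ± 0.07, adjusted p = 0.000122). FBLN5, a fibulin of elastic fibres, had 203, 197, 159 and 202 CPM against 267, 305, 291 and 276 CPM (0.58 ± 0.09, adjusted p = 0.000588). EPAS1, the hypoxia-inducible factor HIF-2 alpha, had 359, 355, 314 and 364 CPM against 497, 515, 452 and 472 CPM (0.47 ± 0.07, adjusted p = 0.000758). None of the 3 overlapped, again a condition of naming, and FBLN5 and EPAS1 had their lowest library in shAHCY_2 replicate 59. BDKRB1, a receptor for kinin peptides, was at 61.7 ± 7.24 and 96.5 ± 1.32 CPM (0.64 ± 0.09, adjusted p = 0.000501). CDCP1, a membrane glycoprotein and substrate of Src kinases, was at 50.5 ± 4.73 and 78.3 ± 5.50 CPM (0.63 ± 0.10, adjusted p = 0.00107).

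Apart from CNN1, which kept its call without each of the 8 libraries, the remaining genes of the 12 largest rises depended more on single libraries. ICAM1, an adhesion molecule for leukocytes, was at 31.5, 33.0, 31.4 and 28.9 CPM against 35.5, 46.5, 58.4 and 49.9 CPM (0.62 ± 0.12, adjusted p = 0.0101) and lost its call without shAHCY_4 replicate 63 (0.50, adjusted p = 0.0613). LRRC15, a membrane protein of activated fibroblasts, was at 11.6 ± 2.41 and 20.2 ± 4.22 CPM (0.81 ± 0.17) and lost its call without shAHCY_2 replicate 58 (adjusted p = 0.062) or shAHCY_4 replicate 64 (adjusted p = 0.0727). MFSD3 was at 19.3 ± 4.45 and 30.5 ± 2.49 CPM (0.65 ± 0.14) and lost its call without shAHCY_4 replicates 63 (adjusted p = 0.069) and 64 (adjusted p = 0.0705). TMEM119 (0.78), SSH3, a cofilin phosphatase (0.68), and PC, pyruvate carboxylase (0.65), lost theirs without 7, 6 and 8 of the 8 libraries, with adjusted p up to 0.127, 0.131 and 0.178. Of 48 called genes named under the rule or as MIR30A, 27 were called without each of the 8 libraries.

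**Figure D3:**
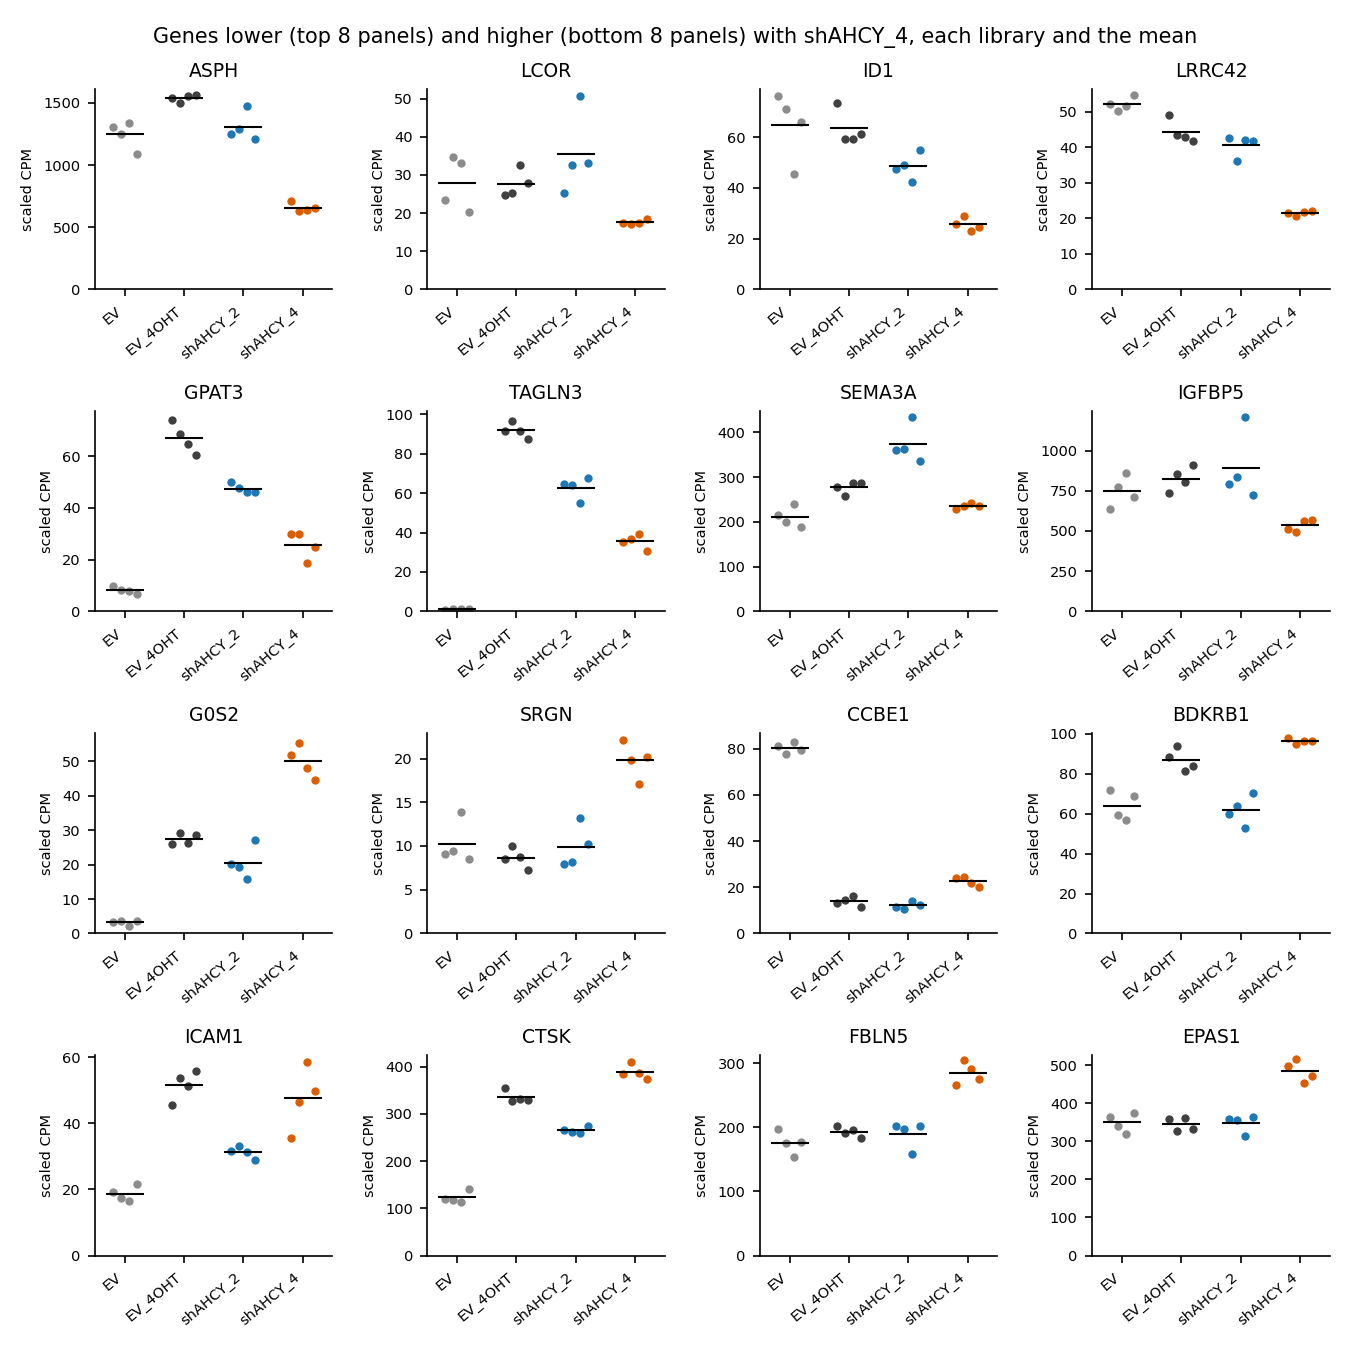
Scaled CPM (vertical axes, from 0) of 16 called genes in each library of the 4 groups; the horizontal line is the mean of 4 libraries. In the top 8 panels the shAHCY_4 points lie below all shAHCY_2 points and in the bottom 8 above them. Examples are ASPH (mean 658 against 1308 CPM) and G0S2 (50 against 20.6 CPM). Ranges apart were a condition for genes named by size or p.

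The levels of the named genes were then set beside EV_4OHT, whose 4 libraries serve both hairpins. The tests of the difference are the contrasts between the hairpins given above. ASPH was at -0.23 ± 0.07 with shAHCY_2 (adjusted p = 0.0509) and at -1.23 ± 0.07 with shAHCY_4 (adjusted p = 9.02e-11), from 1539 ± 30.1 CPM in EV_4OHT. LRRC42 was at -0.13 ± 0.08 (adjusted p = 0.386) and -1.04 ± 0.09 (adjusted p = 1.64e-08), and ID2 at -0.07 ± 0.12 (adjusted p = 0.771) and -0.93 ± 0.12 (adjusted p = 9.31e-06). At LRRC42 and ID2 the shAHCY_2 values lay less than 2 SE from EV_4OHT and the shAHCY_4 values did not. GPAT3 and TAGLN3, which were at 8.17 and 1.08 CPM in EV and at 67.0 and 91.8 CPM in EV_4OHT, were lower with both hairpins. Their log2 differences from EV_4OHT were -0.49 and -0.55 with shAHCY_2 and -1.39 and -1.37 with shAHCY_4.

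Other genes departed from EV_4OHT mainly with 1 hairpin. FBLN5, EPAS1 and CDCP1 were at -0.02, 0.01 and -0.02 with shAHCY_2 and rose by 0.56, 0.49 and 0.62 with shAHCY_4 (adjusted p = 7.96e-05, 5.16e-05 and 0.000147). CNN1, calponin of smooth muscle, BDKRB1 and ICAM1 fell by 0.58, 0.49 and 0.73 with shAHCY_2 (adjusted p = 0.00782, 0.00139 and 0.000397), with values of 0.14, 0.15 and -0.11 for shAHCY_4 that did not pass (adjusted p = 0.52, 0.294 and 0.60). SEMA3A rose by 0.43 with shAHCY_2 (adjusted p = 0.00188) and was at -0.24 with shAHCY_4 (adjusted p = 0.0536). CTSK was the only gene called in opposite directions. It fell by 0.34 with shAHCY_2 (adjusted p = 0.00318) and rose by 0.21 with shAHCY_4 (adjusted p = 0.0413), from 336 ± 13.2 CPM in EV_4OHT to 266 ± 6.86 and 389 ± 15.1 CPM.

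**Figure D4:**
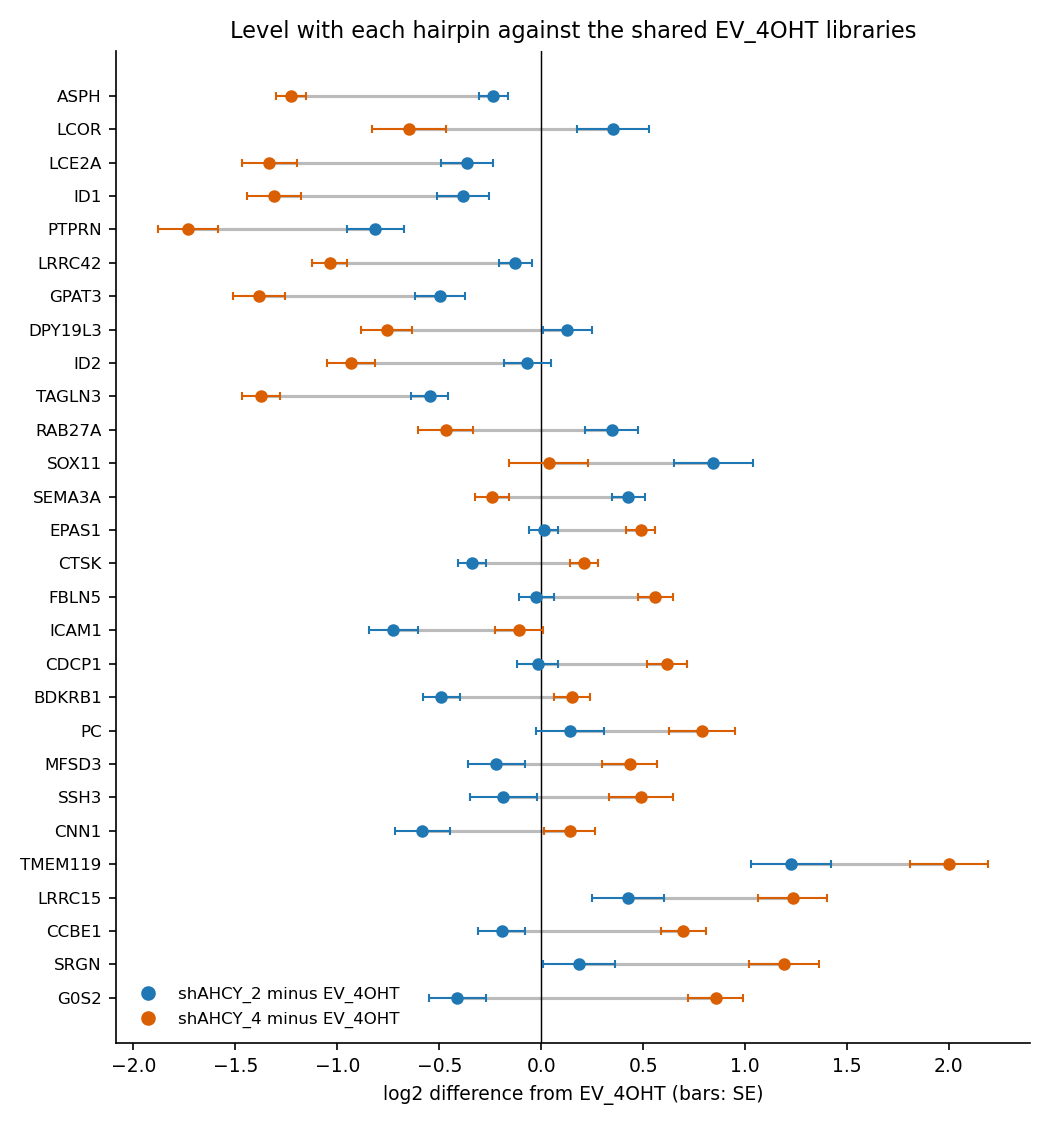
Log2 difference from EV_4OHT (horizontal axis; bars are SE) for 28 named genes (vertical axis) with shAHCY_2 and with shAHCY_4, both against the same 4 EV_4OHT libraries. LRRC42 and ID2 lie near 0 with shAHCY_2 and near -1.04 and -0.93 with shAHCY_4, and CTSK lies on opposite sides of 0.

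Gene lists were described by their counts of called members. Over 44 lists, 880 genes were tested and 24 were called (2.73%, beside 1.24% of all genes), 10 higher and 14 lower with shAHCY_4, and 25 lists had no called member. The lists were chosen with results of these data known, so this share is a description. Calls are those of edgeR's quasi-likelihood test unless another tool is named, and of the same list genes DESeq2 called 60 and limma-voom 27.

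In the methionine cycle and its side branches, 17 genes were tested and 2 were called lower by edgeR and by limma-voom, while DESeq2 called 4 lower and 1 higher. The list's median log2 difference was -0.20, with 8 members lower and 1 higher at an unadjusted p under 0.05. MAT2B, the regulatory subunit of the enzyme that makes S-adenosylmethionine, had 134, 123, 168 and 128 CPM with shAHCY_2 and 104, 88.7, 100.3 and 101 CPM with shAHCY_4 (-0.49 ± 0.09, adjusted p = 0.00911). The shAHCY_4 level was close to the 97.5 CPM of EV_4OHT. The call was lost without shAHCY_4 replicate 62 (-0.44, adjusted p = 0.0788). CTH, which turns cystathionine into cysteine, was at 9.68 ± 1.30 and 6.21 ± 0.68 CPM (-0.64 ± 0.15, adjusted p = 0.0351) and lost its call without 6 of the 8 libraries (adjusted p up to 0.131). MAT2A, the catalytic partner of MAT2B, was at -0.20 (adjusted p = 0.183), MTR, methionine synthase, at 0.08 and AHCYL1, a relative of AHCY, at -0.06. Of 16 genes of serine and folate one-carbon metabolism, PSAT1, an aminotransferase of serine synthesis, was the only one called. It had 90.7, 89.4, 101 and 86.8 CPM against 75.3, 65.0, 59.4 and 62 CPM, without overlap (-0.49 ± 0.08, adjusted p = 0.00197).

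Methyltransferases, the enzymes that S-adenosylhomocysteine can inhibit, were close in their mRNA levels. Of 28 tested, EHMT2, a histone H3 lysine methyltransferase, was the only one called, at 22.3 ± 1.48 and 29.7 ± 1.22 CPM (0.41 ± 0.10, adjusted p = 0.0437). This call was lost without each of the 8 libraries in turn (adjusted p up to 0.114). EZH2, the Polycomb methyltransferase, was at 0.42 ± 0.13 (adjusted p = 0.0983). All 28 had 95% intervals within 1 log2 unit of 0. Of the 22 tested genes of the integrated stress response, VLDLR, a lipoprotein receptor, and CTH were called lower. VLDLR was at 6.02 ± 0.77 and 3.10 ± 0.73 CPM (-0.94 ± 0.20, adjusted p = 0.0201) and lost its call without shAHCY_2 replicates 58 (adjusted p = 0.0636) and 60 (adjusted p = 0.0551) and shAHCY_4 replicates 61 (adjusted p = 0.0527) and 62 (adjusted p = 0.0948). ASNS, asparagine synthetase, was at -0.37 ± 0.10 (adjusted p = 0.0654). AARS1, on the same list, was at 0.29 (adjusted p = 0.104 with edgeR's quasi-likelihood test and 0.0491 with DESeq2). At an unadjusted p under 0.05, 7 of the 22 were lower and 2 higher.

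No gene of the machinery that processes hairpins passed. Of 14 genes tested, among them DICER1 (-0.33 ± 0.17), XPO5, which exports precursors from the nucleus (0.20 ± 0.15), and AGO1 (0.22 ± 0.11), none was called by edgeR's quasi-likelihood test, DESeq2 or limma-voom, and none had an unadjusted p under 0.05 in the edgeR test. All 14 had 95% intervals within 1 log2 unit of 0.

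The secreted factors of senescent cells differed at single genes. Of 21 tested cytokines and chemokines, edgeR called IL1B higher and CCL2 lower with shAHCY_4. DESeq2 called 1 higher and 3 lower, and limma-voom 1 and 2. IL11, on the same list, was at -0.52 (adjusted p = 0.0519 with edgeR, 0.00676 with DESeq2 and 0.0385 with limma-voom). The list's median was -0.43, with 9 members lower and 2 higher at an unadjusted p under 0.05. The median was -0.25 without shAHCY_2 replicate 59. IL1B, a cytokine of the inflammasome, had 79.7, 78.9, 85.6 and 81.0 CPM with shAHCY_2 and 124, 114, 115 and 111 CPM with shAHCY_4 (0.51 ± 0.11, adjusted p = 0.0255). The groups were well apart, while the adjusted p rose above 0.05 without any of 7 of the 8 libraries (0.0504 to 0.0766). CCL2, which attracts monocytes, had 37.5, 35.5, 43.0 and 39.1 CPM against 19.6, 25.6, 33.4 and 22.8 CPM (-0.60 ± 0.14, adjusted p = 0.0327) and lost its call without 7 of the 8 libraries as well (0.0549 to 0.119). IL6 was at 3.04 ± 0.53 and 1.71 ± 0.69 CPM with overlapping groups (-0.81 ± 0.28, 95% interval -1.39 to -0.24, adjusted p = 0.135). CXCL8, the neutrophil chemokine, was at 202 ± 26.9 and 212 ± 24.4 CPM (0.07 ± 0.11), and IL1A at 8.43 ± 1.76 and 8.24 ± 0.98 CPM (-0.02 ± 0.20). Their 95% intervals ran from -0.16 to 0.30 and from -0.44 to 0.40.

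Of 22 tested growth factors and binding proteins of the SASP, IGFBP5 and AREG were called lower by edgeR. DESeq2 called 4 lower and 1 higher and limma-voom 3 and 1, the higher gene being GDF15, a stress-induced cytokine (0.32, adjusted p = 0.0524 with edgeR, 0.013 with DESeq2 and 0.0295 with limma-voom). AREG, an EGF receptor ligand, was at 3.66 ± 0.67 and 1.6 ± 0.47 CPM (-1.15 ± 0.27, adjusted p = 0.0374) and lost its call without 7 of the 8 libraries (0.051 to 0.104). EREG, its relative, was at 167 ± 17.9 and 120 ± 19.3 CPM (-0.48 ± 0.12, adjusted p = 0.0524). Of 16 tested proteases and inhibitors, MMP10, stromelysin-2, was called, with 25.8, 26.9, 25.2 and 32.9 CPM against 49.1, 38.5, 38.0 and 36.9 CPM (0.54 ± 0.11, adjusted p = 0.0122). None of 15 tested genes of NF-kB subunits and feedback inhibitors was called by edgeR or limma-voom and 2 by DESeq2, while 14 of the 15 differences were positive (median 0.15, and 0.09 without shAHCY_2 replicate 59) and 5 were higher at an unadjusted p under 0.05. Of 23 tested interferon-induced genes, none was called by edgeR or limma-voom and 1 by DESeq2. The interferon median was -0.25, with 7 lower and none higher at an unadjusted p under 0.05.

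Markers of the arrest itself were not called between the hairpins, with the exception of RBL2. CDKN1A, which codes for the CDK inhibitor p21, was at 2447 ± 216 and 2893 ± 248 CPM (0.24 ± 0.08, adjusted p = 0.116). It passed with the GC trend removed (0.18, adjusted p = 0.0217), also without shAHCY_2 replicate 59 (0.18, adjusted p = 0.0424). CDKN2A, which codes for p16 and ARF, was at 57.6 ± 1.40 and 55.7 ± 7.14 CPM (-0.04 ± 0.09), and CDKN2B, which codes for p15, at 205 ± 43.9 and 201 ± 13.7 CPM (-0.02 ± 0.10). All 3 overlapped, with 95% intervals from 0.08 to 0.40, from -0.23 to 0.14 and from -0.24 to 0.19. LMNB1, the lamin lost in senescence, had 6.09 ± 1.12 and 5.91 ± 0.77 CPM (-0.03 ± 0.17), both above the 1.22 ± 0.47 CPM of EV_4OHT and below the 35.7 ± 2.23 CPM of EV. CCNA2, cyclin A2, had 20.6 ± 1.56 and 17.7 ± 1.47 CPM (-0.22 ± 0.11, adjusted p = 0.293) and MKI67, a marker of cycling cells, 4.85 ± 1.17 and 6.49 ± 0.87 CPM (0.40 ± 0.19, adjusted p = 0.283). RBL2, the pocket protein p130 that holds E2F targets silent, was the only called gene of 9 CDK inhibitors and pocket proteins (23.0 ± 2.29 and 31.8 ± 1.15 CPM, 0.47 ± 0.11, adjusted p = 0.031), and its call was lost without 7 of the 8 libraries (adjusted p up to 0.0983).

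None of 41 tested mitosis genes was called by edgeR, DESeq2 or limma-voom. Their median was 0.10. At an unadjusted p under 0.05, 5 were higher and 2 lower, beside 2423 of all 13526 genes tested. CCNB1, cyclin B1, was among the higher genes, at 81.0 ± 5.58 and 94.9 ± 1.77 CPM (0.23 ± 0.07, adjusted p = 0.118). Among 42 tested DNA replication genes, none was called by edgeR or limma-voom and 2 by DESeq2, 1 in each direction. Their median was 0.11, with the same 5 and 2 counts at an unadjusted p under 0.05, and 0.03 without shAHCY_2 replicate 59. None of 25 p53 targets was called by edgeR, 3 were by DESeq2 and 1 by limma-voom, and 8 had an unadjusted p under 0.05.

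NRAS, a RAS gene other than the activated transgene, was the only called gene of 6 RAS genes. It had 128, 123, 152 and 117 CPM against 94.0, 84.5, 87.6 and 94.1 CPM (-0.53 ± 0.09, adjusted p = 0.00319), with 107 CPM in EV_4OHT between them. HRAS, at 2322 ± 313 and 2494 ± 163 CPM, overlapped between the hairpins and did not pass (0.10 ± 0.09, 95% interval -0.08 to 0.29). Of 19 ERK target and feedback genes, SPRY2, a feedback inhibitor of RAS signalling, was called lower (106.8 and 81.4 CPM on average, -0.39 ± 0.09, adjusted p = 0.022). Its call was lost without shAHCY_2 replicate 58 (adjusted p = 0.0816) and shAHCY_4 replicates 62, 63 and 64 (0.0743 to 0.0907). MYC was at 82.9 ± 11.2 and 100.3 ± 4.81 CPM and did not pass (0.27 ± 0.09, adjusted p = 0.11).

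**Figure D5:**
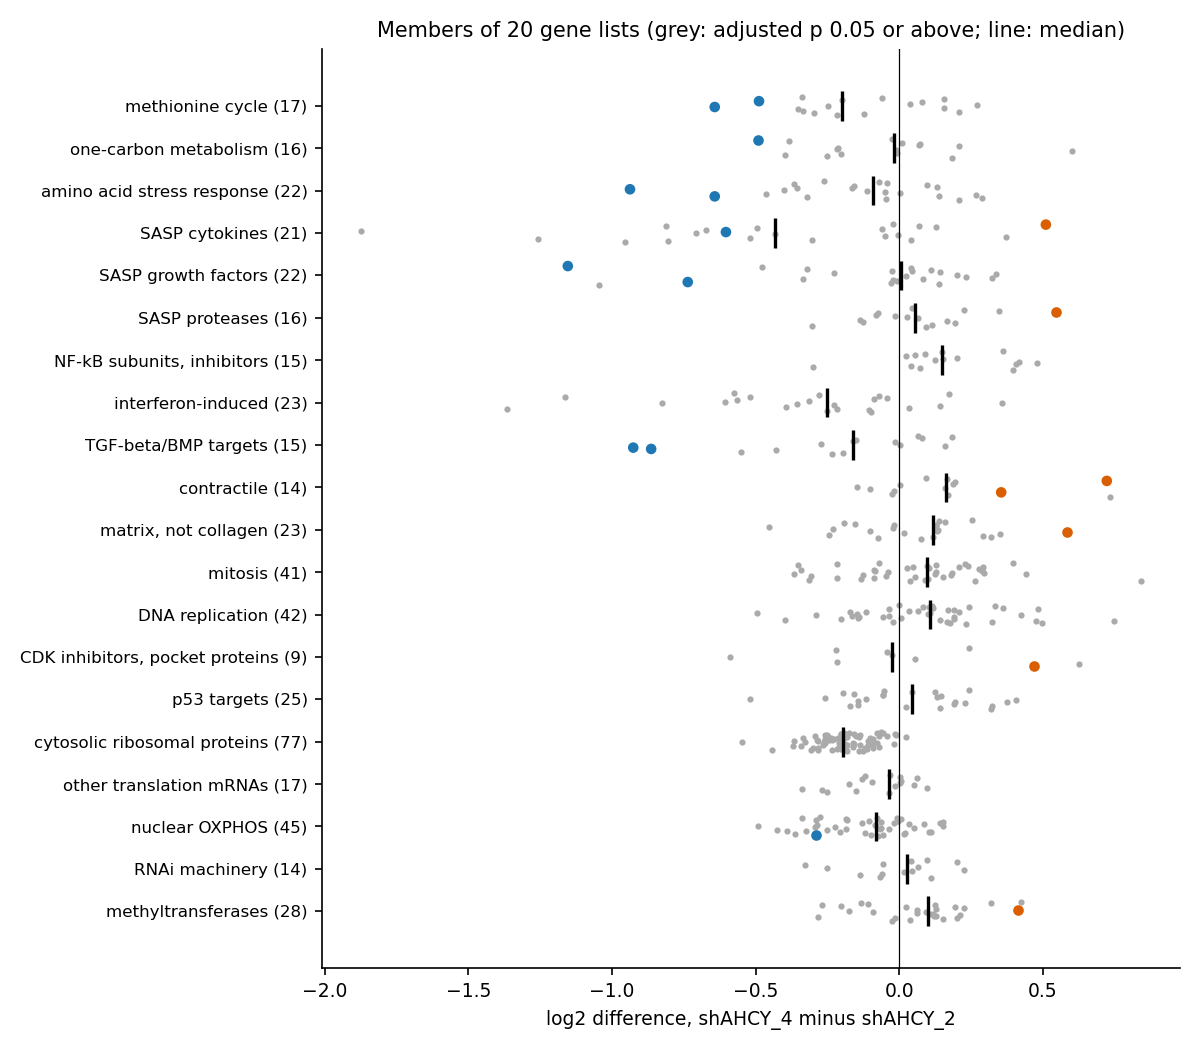
Log2 difference of shAHCY_4 from shAHCY_2 (horizontal axis) for the tested members of 20 gene lists, with their number in brackets; coloured points passed an adjusted p of 0.05 and the vertical line is the list's median. Each list holds no more than 2 coloured points, and the cytosolic ribosomal protein genes lie mostly below 0 with none coloured.

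Cytosolic ribosomal protein genes were slightly lower with shAHCY_4 across the list without a call. Of 77 tested, none was called by edgeR or limma-voom and 5 were called lower by DESeq2. The median log2 difference was -0.19 (-0.16 without shAHCY_2 replicate 59), 76 of 77 differences were negative, and 41 were lower at an unadjusted p under 0.05. As a share of all counts, these genes made up 2.59%, 2.68%, 2.74% and 2.85% in the shAHCY_2 libraries and 2.53%, 2.38%, 2.47% and 2.46% in the shAHCY_4 libraries. The groups did not overlap, and the difference of -0.25 percentage points had a two-sided exact permutation p of 0.0286, the smallest that 4 against 4 allows (0.0571 adjusted over the 2 shares tested). The EV_4OHT libraries spanned 2.79% to 3.22% and the EV libraries 2.46% to 3.19%. The SD was 0.11 and 0.07 percentage points within shAHCY_2 and shAHCY_4, and 0.20 and 0.30 within EV_4OHT and EV. The share on mitochondrial genes, 4.98% ± 0.25 and 4.60% ± 0.30, did not pass a two-sided exact permutation test (p = 0.143).

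Transcripts of ribosomal proteins typically start with a C and a run of pyrimidines, through which their translation is controlled together. The starts of the 4 members with the smallest p among those with such a run in RefSeq are shown, 25 bases each from 5 bases before the annotated start in GRCh38.p14, with the run in capitals.
RPS12, chr6:132814564-132814588, plus strand: gaggcCTCTTTCCCTgccgccgccg
RPL14, chr3:40457334-40457358, plus strand: tcttcCTTCTCgcctaacgccgcca
RPS13, chr11:17077648-17077672, minus strand: gctctCCTTTCgttgcctgatcgcc
RPL39, chrX:119791611-119791635, minus strand: agcttCCCTCCTCTTCCTTTCTCCg

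A start with a C followed by at least 4 bases that are C or T, read on the transcript's strand, was found for 46 of 62 ribosomal protein genes with a window (74.2%) and for 7.43% of the 10343 tested genes with one. The median difference between the hairpins was -0.20 for the ribosomal protein genes with such a start and -0.16 for those without. RPS12 was at 247 ± 18.7 and 195 ± 21.9 CPM (-0.34 ± 0.09, adjusted p = 0.0654) and RPL14 at 116 ± 4.59 and 94.7 ± 8.41 CPM (-0.30 ± 0.09, adjusted p = 0.099). Of 17 other translation mRNAs, none was called by edgeR or limma-voom and 1 by DESeq2, 4 were lower at an unadjusted p under 0.05, and the median was -0.04.

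Single genes of other pathways made up the remaining calls of the lists. Of 14 contractile genes, CNN1 was called at 4.87 ± 0.51 and 7.98 ± 1.02 CPM (0.72 ± 0.13, adjusted p = 0.00564) and ACTG2, a smooth muscle actin, at 133 ± 10.4 and 170 ± 11.1 CPM (0.35 ± 0.08, adjusted p = 0.0285), while ACTA2 was at 0.09 and TAGLN at 0.17. The call of ACTG2 was lost without shAHCY_2 replicate 59 and shAHCY_4 replicates 62 and 63 (adjusted p 0.0682 to 0.102). AKR1B1, aldose reductase, was the only called gene of 22 NRF2 targets, with 798, 802, 688 and 901 CPM against 1148, 1143, 1117 and 1069 CPM (0.49 ± 0.07, adjusted p = 0.000835). The shAHCY_4 level was close to the 1217 CPM of EV_4OHT. HSPA5, the main chaperone of the endoplasmic reticulum, was the only called gene of 20 chaperones and stress genes there (1449 ± 102 and 1733 ± 69.5 CPM, 0.26 ± 0.06, adjusted p = 0.049), and the call was lost without 7 of the 8 libraries (0.0504 to 0.166). MT-RNR2, the large mitochondrial ribosomal RNA (-0.35 ± 0.08, adjusted p = 0.03), ATP5MC3, a subunit of ATP synthase (-0.29 ± 0.06, adjusted p = 0.0279), and VIM, vimentin (-0.21 ± 0.05, adjusted p = 0.0425), were called lower and lost their calls without 5, 6 and 7 of the 8 libraries. Of the 45 nuclear-encoded respiratory chain genes, ATP5MC3 among them, 34 differences were negative and 11 positive. At an unadjusted p under 0.05, 12 were lower and 0 higher. Of 29 lysosomal genes, CTSK among them, 19 differences were positive and 10 negative, with 7 higher and 0 lower at that limit.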

How the data were processed

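RNA of all 16 libraries was prepared with Smart-Seq2, which does not mark strand, and Nextera XT, per the labels' protocols. The deposited values are whole-number read counts per gene, made by the authors with TopHat2 2.0.11 and featureCounts 1.18.0 on hg19, per the submitters' processing notes. The annotation release and the treatment of reads that map to several genes are not given in sources used here, so overlapping or near-identical genes are uncertain. Libraries held 8236199 to 18235787 counts. Genes were filtered with filterByExpr, scaled with TMM and tested with edgeR 4.0.16's quasi-likelihood test (16 libraries, group means, no covariate), with Benjamini-Hochberg adjustment over 13526 genes and a threshold of 0.05. The standard error was the difference divided by the root of F. DESeq2 1.42.0, limma-voom 3.58.1 and the other alternatives are given in the closing section, and the procedure was tested on simulated data. Named were AHCY, fixed senescence genes, the 12 largest differences and 6 smallest p in each direction among called genes with a mean log2 CPM of at least 3, and list members (called ones, or those of smallest p). The members and lists were chosen with earlier results of these data known. Symbols cover 39007 of 62069 identifiers, and GC content came from GENCODE on GRCh38, another build, with no coordinates taken from it.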

Additional observations from a re-analysis of the deposited data

Results flagged for a closer look

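Of 96 groups of 4 libraries checked among named genes, 5 (5.21%) held a library far from its group, and chance gives about 1 in 20. AHCY was highest in shAHCY_4 replicate 63 (18 CPM), and RAB27A was highest in that library too (20.5 CPM). DPY19L3 was highest in shAHCY_4 replicate 61 (13.7 CPM). LRRC42 was lowest in shAHCY_2 replicate 58 (36.1 CPM) and FBLN5 in shAHCY_2 replicate 59 (159 CPM). CTSK stood out because it was called in opposite directions against EV_4OHT with the 2 hairpins, and the test of the difference itself gave a log2 difference of 0.55 (adjusted p = 0.000122, edgeR's quasi-likelihood test).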

How the results depend on the processing

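Beside 168 called genes (73 higher, 95 lower with shAHCY_4; 24 list members), DESeq2 called 481 (244, 237; 60), the fit without a low-count filter 553 (123, 430; 76), the fit with only the 8 hairpin libraries 78 (31, 47; 12) and the fit with each library's GC trend removed 623 (382, 241; 87). Removing the GC trend and leaving out shAHCY_2 replicate 59 together, an alternative chosen after seeing the data, gave 353 (205, 148; 56). A required log2 difference of over 1 left 0 (0 higher, 0 lower) by edgeR, with 28 genes at an unadjusted p under 0.05. Leaving out each library gave 75 to 155 genes, 36 to 85 higher, 38 to 71 lower and 10 to 27 list members. The share of ribosomal protein genes then differed by -0.296 to -0.210 percentage points, where 4 against 3 libraries cannot go below an exact permutation p of 0.0571. The causes of these changes were not tested. Of the called genes 43.5% were higher, beside 22.2% without a filter and 61.3% with the GC trend removed. Over the named genes, 3281 values kept direction and side of the threshold, 147 lost the call and 177 gained it. No called value changed sign, while 28 values of 10 genes that were not called did (CDKN2A, CDKN2B, CSF1R, CXCL8, EPCAM, FCER1G, IL1A, LMNB1, RB1 and VWF). Of 48 called named genes, 25 were called under all alternatives other than the fold threshold. No paired analysis was possible because the hairpin groups share no replicate numbers. With 4 libraries a group the median SE was 0.14 on the log2 scale, which limits what differences could be seen.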

Other observations

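Further genes among the 168 called ones were chosen after their values were seen and are given as values, with edgeR's quasi-likelihood test. EIF1, which guides start codon choice in translation, was at -0.36 (adjusted p = 0.00204) and EIF2S3, a subunit of the factor that brings the initiator tRNA, at -0.43 (adjusted p = 0.00366). BZW1, a protein related to the initiation factor EIF5, was at -0.68 (adjusted p = 0.00996). EIF5 itself (-0.28, adjusted p = 0.0313) and EIF4EBP2, a repressor of cap binding (-0.33, adjusted p = 0.0468), lost their calls without shAHCY_2 replicate 59 (adjusted p = 0.0571 and 0.0717). The list of 17 other translation factors held no called gene. BDKRB2, the other kinin receptor beside BDKRB1, was higher at 0.53 (adjusted p = 0.0441, and 0.0531 with limma-voom). SFRP1 and DKK3, secreted proteins that can restrain Wnt signalling, were higher at 0.45 (adjusted p = 0.00581) and 0.35 (adjusted p = 0.0151). SEMA3D, a relative of SEMA3A, was at -0.94 (adjusted p = 0.0496) and NRP2, a semaphorin receptor, at 0.42 (adjusted p = 0.0441). Both lost their calls without shAHCY_2 replicate 59 (SEMA3D -1.01, adjusted p = 0.0571; NRP2 0.32, adjusted p = 0.108), and SEMA3D also with limma-voom (adjusted p = 0.099).

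The largest differences among the called genes lay at genes whose mean log2 CPM over the 16 libraries was below the 3 required for naming. That mean includes the EV libraries, so it can be low for a gene with a higher level in the other groups. LINC02392, a long noncoding RNA, was at 11.5 CPM with shAHCY_2 and 3.87 with shAHCY_4 (-1.6, adjusted p = 3.11e-05). DSP, desmoplakin of cell junctions, was at 3.13 and 9.20 CPM (1.55, adjusted p = 0.000125). PPP1R13L, an inhibitor of p53, was higher by 1.46 (adjusted p = 0.016). ANGPT2, an angiopoietin, was at -1.57 (adjusted p = 0.0441) and lost its call without shAHCY_2 replicate 59 (-1.53, adjusted p = 0.0673) and with limma-voom (adjusted p = 0.0646). No gene had 0 counts with 1 hairpin and at least 10 counts in every library of the other.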
